A study of Mus musculus with 5480 samples.

Results

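Complement is a cascade of plasma and membrane proteins that tags targets and punctures membranes, and 7 of its genes were followed here through the connective-tissue cells of the developing mouse lung. C1ra encodes the protease C1r of the first complex and Serping1 encodes the C1 inhibitor. C4b and C3 encode the central components, and C7 encodes a component of the membrane attack complex. Cd55 (decay-accelerating factor) and Cd59a encode inhibitors carried on the cell surface. The genes were taken by name as a list, and they make up 7 of the 18072 genes of the deposited table. All 7 had reads.

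The study sorted mesenchymal cells (fibroblasts, smooth muscle and pericytes) from distal lung by flow cytometry and sequenced each cell alone, in plates, after fragmentation with Tn5 transposase. Each of 5 groups held 1 female and 1 male mouse, 10 mice in all: embryonic day 18.5 (E18.5, 1206 cells), postnatal day 1 (P1, 1203 cells), P7 (1176 cells) and P21 (835 cells), all in normal air, and P7 after hyperoxia (1060 cells), the breathing of oxygen-enriched air. The labels name the sex of each mouse and give neither a strain nor an oxygen concentration. The question for these genes was which mesenchymal class carries each step of the cascade, how that changes with age, and whether hyperoxia alters it.

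The classical pathway begins when the C1 complex binds a target and its proteases cleave C4 and C2, which then cut C3. Cleaved C3 coats surfaces, feeds an amplification loop through factor B, and leads to a terminal complex built from C5 to C9. The C1 inhibitor blocks the first proteases, CD55 breaks up the enzymes that cut C3, and CD59 stops the terminal complex from forming a pore. The liver supplies most circulating complement, while fibroblasts and other tissue cells also make components locally.

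C3 and Serping1 passed the test between adventitial and alveolar fibroblasts in one direction and C7 in the other, and the sequence before the start is shown for C3 and C7, which had an entry in the promoter table. Both are from RefSeq on the mouse build GRCm38.p6 and read 5′ to 3′ on the gene's own strand, the minus strand for both. Each covers the 250 bases that end just before the start, for C3 chr17:57228137-57228386 and for C7 chr15:5063774-5064023. Capitals mark matches to short motifs on either strand.
C3: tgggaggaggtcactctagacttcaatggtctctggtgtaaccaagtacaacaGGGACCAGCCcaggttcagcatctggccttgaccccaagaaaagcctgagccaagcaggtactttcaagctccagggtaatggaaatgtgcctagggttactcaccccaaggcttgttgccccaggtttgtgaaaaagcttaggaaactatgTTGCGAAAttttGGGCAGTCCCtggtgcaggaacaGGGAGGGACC
C7: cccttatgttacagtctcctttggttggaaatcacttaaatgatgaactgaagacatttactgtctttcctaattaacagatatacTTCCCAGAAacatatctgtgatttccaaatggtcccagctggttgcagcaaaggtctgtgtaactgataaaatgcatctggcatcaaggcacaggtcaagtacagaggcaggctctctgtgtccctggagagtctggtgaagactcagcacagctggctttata
The capitals in C3 mark 3 matches to the NF-kB-type motif (GGGA and CC with 4 bases between), at 197 to 188, 33 to 24 (on the opposite strand) and 10 to 1 bases before the start, and 1 match to the C/EBP-type motif TTGCNNAA at 45 to 38 bases. The capitals in C7 mark 1 match to the STAT-type motif TTCNNNGAA, at 164 to 156 bases. No match overlapped another. The NF-kB-type motif was present in 17.6%, the C/EBP-type in 9.56% and the STAT-type in 7.02% of 32851 RefSeq promoters of the same length. Of the other members with an entry, Cd55 held 1 NF-kB-type match at 61 to 52 bases and Cd59a held 1 match to the interferon-stimulated type (GAAA and GAAA with 2 bases between), at 187 to 178 bases (2.98% of promoters). C1ra held no match to any of these, and no member held the AP-1-type TGANTCA (6.75% of promoters). Promoters were matched for 5 of the 7 members, and C4b and Serping1 were not among them. These matches describe letters in a window and were not tied to any measurement of binding.

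Each mouse gave 311 to 633 cells and 294154721 to 671766116 reads, with 39358 to 5177020 reads per cell (median 774305). The authors' names of 16 subtypes were used, with early and later names joined, which gave 839 adventitial, 1868 alveolar, 399 airway smooth muscle, 201 vascular smooth muscle, 281 pericyte and 520 myofibroblast cells. The names were compared with marker genes by their summed level. The 7 adventitial markers were at 1717 to 21385 CPM in adventitial libraries (median 7622) and at most 2459 in the other 5 classes, an overlap with airway and alveolar libraries. Pericyte markers were at 5674 to 9241 CPM in pericytes and at most 3023 elsewhere. Myofibroblast markers were lower in myofibroblasts (median 6606, at most 8072) than in airway smooth muscle (median 15771, at most 16858), so that this list does not set the myofibroblast name apart. Vascular markers were at 11744 to 24008 CPM in vascular and up to 14162 in airway smooth muscle. Airway smooth muscle markers were at 4951 to 8210 CPM in airway and up to 6197 in vascular smooth muscle, so both lists overlapped between these classes. Alveolar markers were at 1523 to 6033 CPM in alveolar libraries and at most 1331 elsewhere. Nearly all hyperoxia cells came from runs that held no mouse in air, so that hyperoxia and run cannot be told apart in the pooled values. The mesenchymal gates of the 4 males in normal air shared 1 run. The median number of genes detected per cell was 2061 to 3848 in the mice in air, and 4268 and 5545 in the hyperoxia female and male. Among the 839 adventitial cells, 17 carried reads of all 6 mesothelial markers tested (Msln, Upk3b, Wt1, Lrrn4, Krt19 and Upk1b) and every other cell carried at most 2. They were 1 cell at P1 and 1 at P7, both female, and 6 and 9 cells of the hyperoxia female and male, and C3 comparisons of adventitial cells are therefore given with and without them. Levels below are in CPM, the reads of a gene over 1000000 reads of all cells of a mouse and class together, and errors are SD over mice unless stated.

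The 7 genes divided the mesenchyme unevenly. By the mean over all mice of a class, C3, C1ra, Serping1 and Cd55 stood highest in adventitial fibroblasts, the fibroblasts around airways and larger vessels. C7 and Cd59a stood highest in alveolar fibroblasts, and C4b in adventitial fibroblasts and vascular smooth muscle. At P21 alone, C4b was higher in airway than in vascular smooth muscle (154 ± 40.5 against 103 ± 18.4 CPM). Over the means of the 6 classes, myofibroblasts carried the least Serping1 and C1ra, with no library of at least 10 cells at P21. The plot of levels by class shows each mouse.

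**Figure D1:**
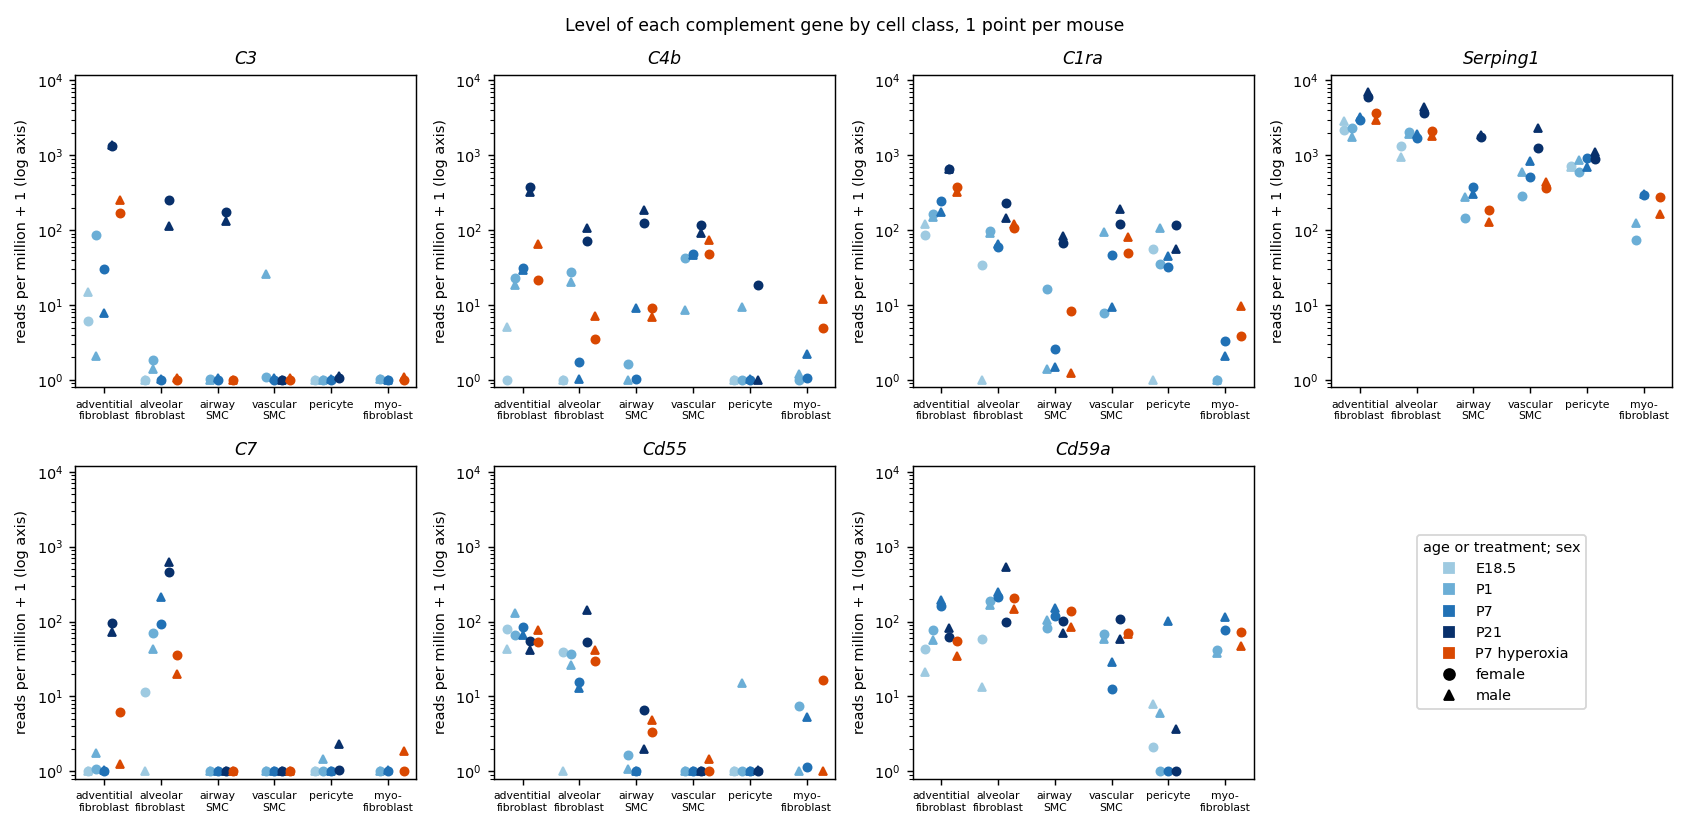
Level of each gene in CPM + 1 (log axis) by cell class, with 1 point per mouse having at least 10 cells of the class; colour gives age or hyperoxia and shape gives sex, and SMC stands for smooth muscle cells. C3 was above 100 CPM in adventitial, alveolar and airway smooth muscle cells of both P21 mice and in adventitial cells of both hyperoxia mice, and C7 was at 0 in every airway and vascular library.

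Serping1 was read in a mean of 53.0% of cells in myofibroblasts, the lowest of the 6 classes, and 96.6% in adventitial fibroblasts, the highest. It had a mean of 3497 ± 1688 CPM in adventitial (n = 10 mice, 1749 to 6909), 2183 ± 1035 in alveolar (n = 10, 948 to 4357), 824 ± 667 in vascular smooth muscle (n = 8), 816 ± 173 in pericytes (n = 8), 629 ± 732 in airway smooth muscle (n = 8) and 207 ± 99.3 in myofibroblasts (n = 6). Every neighbouring pair in that order overlapped across mice. Within a mouse, the adventitial level was above the alveolar in 9 of 10 mice and above each of the other 4 classes in every mouse compared.

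C1ra followed the same order of classes, with 293 ± 207 CPM in adventitial and 94.5 ± 63.7 in alveolar fibroblasts, 74.2 ± 61.4 in vascular smooth muscle, 55.3 ± 38.7 in pericytes, 21.9 ± 33.4 in airway smooth muscle and 2.50 ± 3.25 in myofibroblasts. It was higher in adventitial than in alveolar cells in all 10 mice. The protease and its inhibitor were thus both lowest in myofibroblasts over these means. Airway smooth muscle had P21 libraries and myofibroblasts had none. In matched groups the order of these 2 classes varied. In hyperoxia airway smooth muscle had the lower means, with C1ra at 3.80 against 5.81 CPM and Serping1 at 156 against 222. At P7 in air C1ra was lower in airway smooth muscle (1.03 against 1.70) and Serping1 in myofibroblasts (299 against 342). At P1 both were lower in myofibroblasts.

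C4b stood at 89.2 ± 140 CPM in adventitial fibroblasts and 58.6 ± 33.4 in vascular smooth muscle, and the adventitial level was the higher in only 3 of 8 mice. The adventitial values ran from 0 at E18.5 in the female to 380 at P21. Vascular smooth muscle carried C4b at every age with enough cells, with 41.5 and 7.67 CPM at P1, 47.5 and 45.3 at P7 and 116 and 90.0 at P21 (female and male). Pericytes, the neighbouring mural cells, had 3.23 ± 6.45 CPM with 0 reads in 5 of 8 libraries.

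C3 reached 327 ± 549 CPM in adventitial fibroblasts, the cells of mesothelial markers included, with a median over mice of 58.0 and a range of 1.07 to 1390. In the other 5 classes C3 exceeded 1 CPM only at P21, in alveolar (252 in the female and 112 in the male) and airway smooth muscle cells (176 and 131), and in 1 vascular library, of the P1 male, at 25.3 CPM from 1 cell. Pericytes stayed at or below 0.115 CPM and myofibroblast libraries of at least 10 cells at or below 0.101 CPM. Apart from that 1 library, contractile cells were near 0 before P21. Fibroblast precursors at E18.5 had 2.64 and 2.69 CPM, and the 17 proliferating fibroblasts of the P7 female had 37.4.

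C7 was highest in alveolar fibroblasts, at 157 ± 216 CPM over 10 mice, against 17.3 ± 35.2 in adventitial cells. It was higher in alveolar cells in 9 mice and had 0 reads in both classes of the E18.5 male. Fibroblast precursors, the main fibroblast label at E18.5, had 31.7 and 19.3 CPM. No airway or vascular smooth muscle library held a read of C7.

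The membrane inhibitors differed from each other. Cd55 had its highest mean over mice in adventitial fibroblasts (68.9 ± 26.1 CPM, 41.1 to 129), with 39.1 ± 39.4 in alveolar cells. It was at most 5.63 CPM in airway and 0.449 CPM in vascular smooth muscle. At P21 the alveolar mean was the higher (97.5 ± 63.2 against 47.2 ± 8.71). This came from the male, at 142 against 41.1, the female being at 52.8 against 53.4. Cd59a was spread widely, with 186 ± 141 CPM in alveolar fibroblasts, 105 ± 28.8 in airway smooth muscle, 77.6 ± 55.4 in adventitial fibroblasts, 64.2 ± 29.5 in myofibroblasts and 58.1 ± 29.0 in vascular smooth muscle. Pericytes had the lowest mean of Cd59a: it was at 0 to 7.03 CPM in 7 of 8 pericyte libraries, the P7 male being at 100 from 3 cells with a read, and Cd55 had reads in 2 of 8 pericyte libraries.

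The class differences were tested with edgeR's quasi-likelihood test on reads summed per mouse and class, with the mouse as a block and Benjamini-Hochberg adjustment over all genes tested. Against alveolar fibroblasts, 3 of 7 members passed an adjusted p of 0.05, where 7.27% of all 13122 genes tested did. Serping1 (log2 fold change 0.74 ± 0.14 SE, edgeR adjusted p = 0.0049) and C3 (7.48 ± 1.64, adjusted p = 0.012, higher in 10 of 10 mice) were higher in adventitial cells, and C7 was lower (-6.55 ± 1.40, adjusted p = 0.012). Cd59a (-1.02 ± 0.31, adjusted p = 0.074), C1ra (1.89 ± 0.60, adjusted p = 0.084), C4b (3.15 ± 1.03, adjusted p = 0.10) and Cd55 (1.55 ± 0.74, adjusted p = 0.31) did not pass. Without the cells of mesothelial markers C3 was at 6.39 (adjusted p = 0.0061) and the same number of members passed. The median log2 fold change was 1.55 over the 7 members and 0.11 over all genes tested. Without the mouse block none of the 7 passed, at adjusted p of 0.25, 0.35 and 0.26 for Serping1, C3 and C7. In the mice in normal air alone 2 of 7 passed, Serping1 being at 0.052, and without the E18.5 male 5 of 7 passed, C1ra and Cd59a in addition.

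The adventitial class was also compared with the other 4 classes. Against myofibroblasts 4 of 6 members tested were higher (12.3% of all genes passed), against airway smooth muscle 4 of 6 (10.8%), against vascular smooth muscle 4 of 6 (9.39%) and against pericytes 5 of 6 (13.8%). Serping1 and C3 passed in all 4. The fitted difference of Serping1 ran from 1.99 ± 0.24 against pericytes (edgeR adjusted p = 0.00016) to 4.02 ± 0.23 against myofibroblasts (adjusted p = 2.6e-05). That of C3 ran from 8.32 ± 1.54 against airway smooth muscle (adjusted p = 0.0050) to 13.38 ± 0.78 against pericytes (adjusted p = 5.7e-07). Without the cells of mesothelial markers C3 passed in all 4 as well, from 6.78 against airway smooth muscle (adjusted p = 0.0022) to 13.31 against pericytes (adjusted p = 8.3e-07). C7 was not tested in these 4 contrasts because its counts were below the filter. It had 22978 adventitial reads against 0 in airway and 0 in vascular cells, and 15093 of them came from the P21 female, 7433 from the P21 male and 394 from the hyperoxia mice.

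The remaining members passed in some of these contrasts. C1ra was higher than in myofibroblasts (7.70 ± 0.95, edgeR adjusted p = 0.0012), airway smooth muscle (6.19 ± 1.02, adjusted p = 0.0024) and vascular smooth muscle (2.60 ± 0.41, adjusted p = 0.0019). Cd55 was higher than in airway (6.74 ± 1.34, adjusted p = 0.0075) and vascular smooth muscle (11.99 ± 1.10, adjusted p = 6.9e-05) and pericytes (11.42 ± 1.50, adjusted p = 0.00031). C4b was higher than in myofibroblasts (5.58 ± 1.32, adjusted p = 0.026) and pericytes (8.40 ± 1.89, adjusted p = 0.013), and its difference from vascular smooth muscle was 0.08 ± 0.43 (adjusted p = 0.94). Cd59a passed against pericytes alone (5.63 ± 1.71, adjusted p = 0.048), and leaving out any 1 of 6 mice, both mice of P1 and P21 and the females of E18.5 and P7, ended that call (adjusted p = 0.067 to 0.096). C4b against myofibroblasts likewise failed without either P7 mouse or the P1 male (adjusted p = 0.056 to 0.063), and C3 against vascular smooth muscle failed in normal air alone (adjusted p = 0.074). The medians over members were 6.08, 4.78, 2.47 and 7.01, beside 0.02, 0.12, 0.40 and 0.34 over all genes, for myofibroblasts, airway, vascular smooth muscle and pericytes.

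Between the 2 mural classes, none of the 4 members tested passed in pericytes against vascular smooth muscle (3.33% of all genes did), with 2 at an unadjusted p under 0.05 and 2 called by DESeq2. C4b had a mean of 58.0 ± 38.6 CPM in vascular smooth muscle and 4.31 ± 7.26 in pericytes of the same 6 mice (-9.34 ± 2.94, edgeR adjusted p = 0.14), and Cd59a had 54.9 ± 33.6 and 18.0 ± 40.4 (-6.65 ± 2.56, adjusted p = 0.26). Both were lower in pericytes in 5 of 6 mice. Without the P1 male C4b passed (adjusted p = 0.045). The median was -3.32 over the 4 members and 0.09 over all genes.

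**Figure D2:**
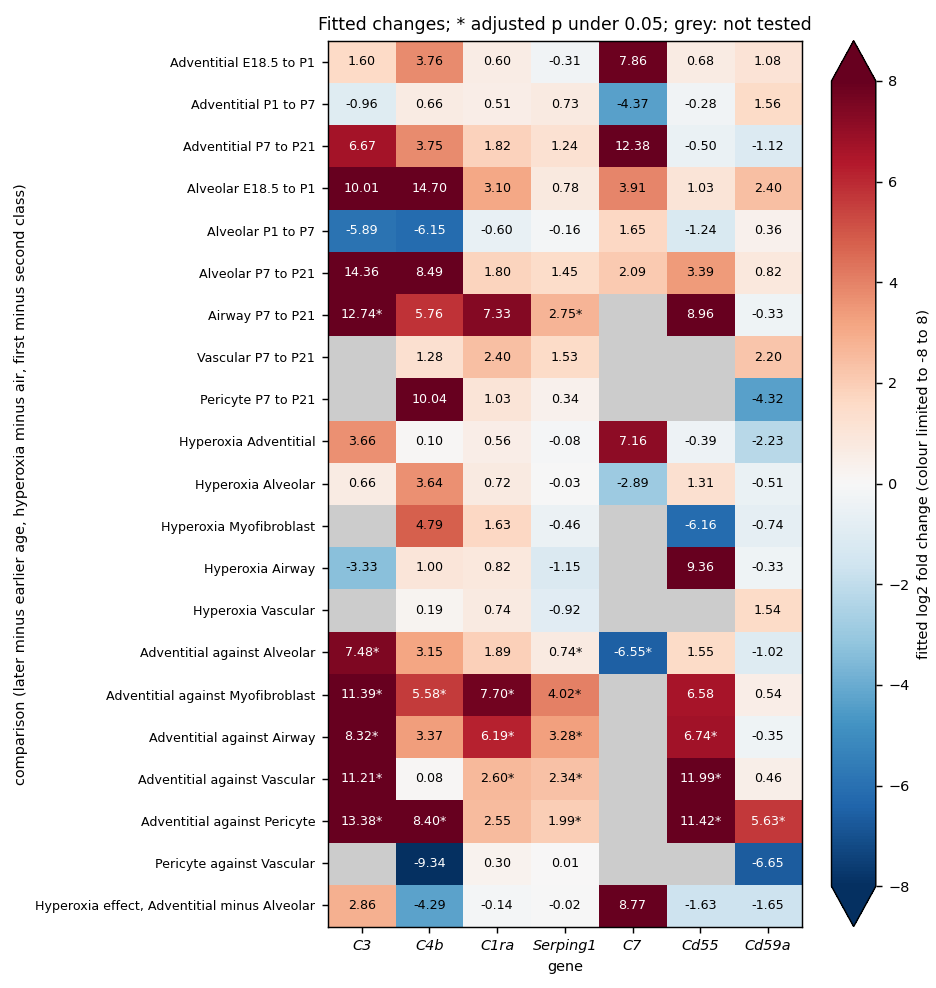
Fitted log2 fold change of each gene (columns) in each comparison (rows), from edgeR, with the number printed and coloured from blue (lower) to red (higher); asterisks mark an adjusted p under 0.05 and grey marks genes not tested. Asterisks fall in the adventitial class contrasts and, among ages, in airway smooth muscle from P7 to P21, where C3 and Serping1 passed.

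With age, the secreted members had their highest levels at P21. In adventitial fibroblasts C3 was at 5.23 and 13.8 CPM at E18.5 (female and male), 86.6 and 1.07 at P1, 29.5 and 6.93 at P7, and 1323 and 1390 at P21. C4b was at 0 and 4.08, 21.9 and 17.7, 30.0 and 28.8, and 380 and 325 at the same ages. C1ra was at 86.3 and 119, 164 and 151, 244 and 172, and 648 and 648. For all 3 genes both P21 mice lay above every younger mouse in air. In the run that held the mesenchymal gates of the 4 males, C3 was at 13.8, 1.07, 5.57 and 1394 CPM from E18.5 to P21.

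**Figure D3:**
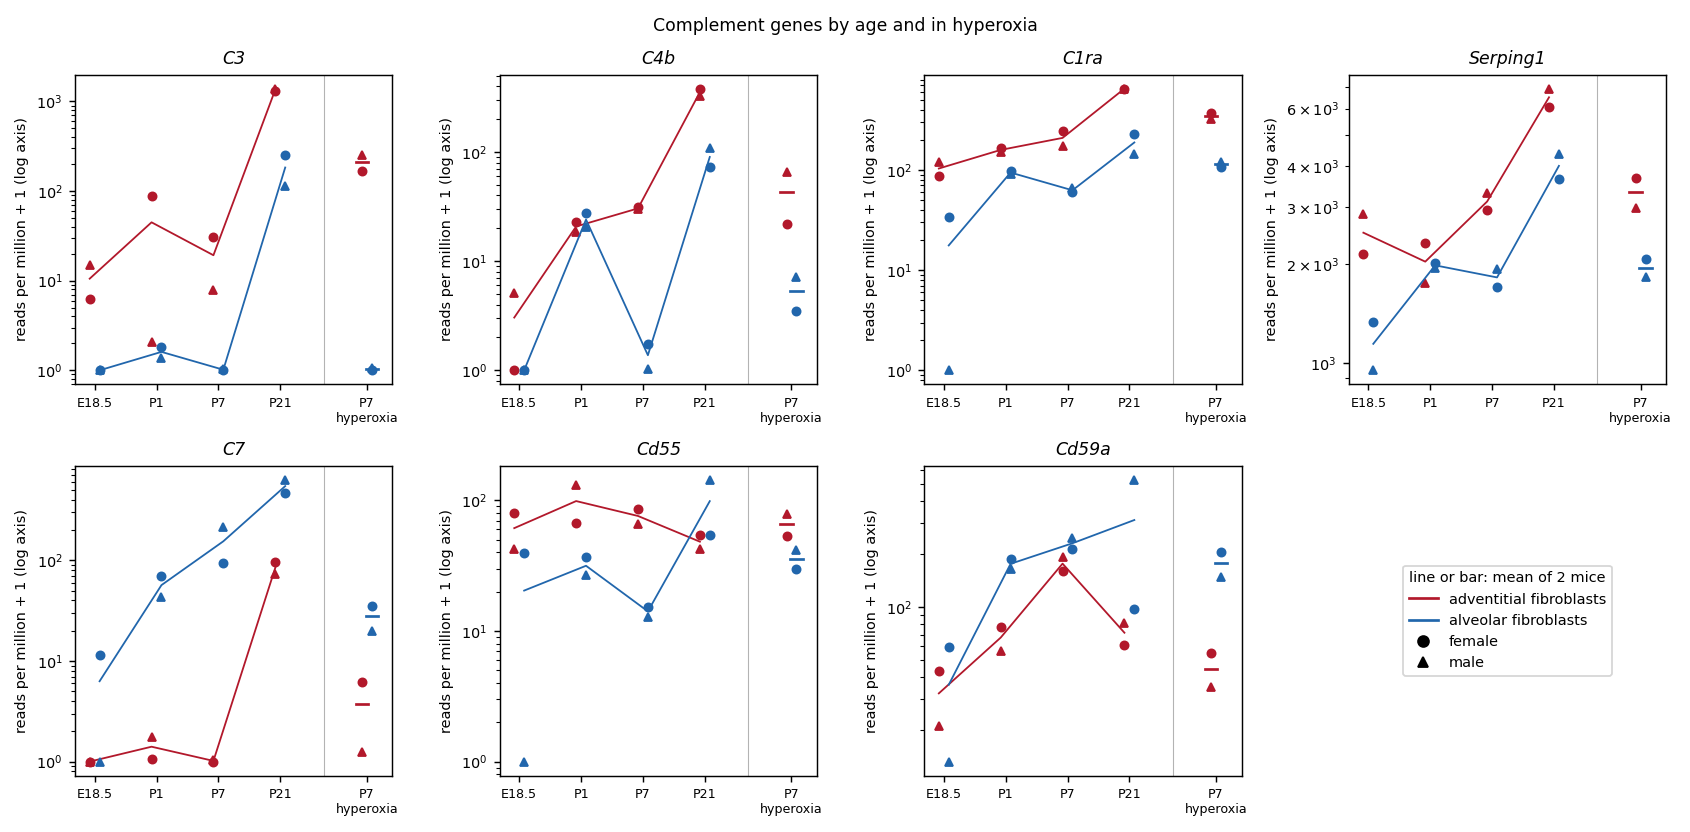
Level of each gene in CPM + 1 (log axis) at each age in air and, right of the grey line, at P7 in hyperoxia, in adventitial (red) and alveolar (blue) fibroblasts; points are mice and lines or bars are means of 2 mice. C3 at P21 is above 1300 in both adventitial points and above 100 in both alveolar points, and adventitial Cd59a peaks at P7.

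Serping1 in adventitial cells was at 2157 and 2846 CPM at E18.5, 2330 and 1749 at P1, then 2933 and 3300 at P7 and 6088 and 6909 at P21. C7, at 0.745 CPM or less before P21 in air, reached 94.5 and 71.9. The inhibitors on the membrane were lower at P21 than at P7: Cd55 was at 84.3 and 65.4 at P7 and 53.4 and 41.1 at P21, and Cd59a, which was at 42.6 and 20.3 at E18.5, gave 76.8 and 55.8 at P1, 159 and 193 at P7 and 60.4 and 80.9 at P21. P7 therefore held the highest Cd59a of the 4 ages in both sexes.

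From P7 to P21 in adventitial fibroblasts none of 7 members passed in edgeR's quasi-likelihood test (0.124% of 15289 genes did), while 6 of 7 were at an unadjusted p under 0.05, as were 1554 of all genes, and DESeq2 called 4. C3 was 18.2 ± 16.0 CPM at P7 and 1356 ± 47.5 at P21 (n = 2 mice each, log2 fold change 6.67 ± 1.57 SE, edgeR adjusted p = 0.18), and C4b was 29.4 ± 0.865 and 352 ± 38.6 (3.75 ± 1.13, adjusted p = 0.34). C1ra was 208 ± 50.4 and 648 ± 0.103 (1.82 ± 0.33, adjusted p = 0.077), and Serping1 3117 ± 260 and 6498 ± 580 (1.24 ± 0.30, adjusted p = 0.19). In all 4 the P7 and P21 mice did not overlap. How many of all genes set the mice apart in this way was not counted, here or in the other age steps. C7 had 2 reads at P7 and 22526 at P21, a ratio of summed levels of 5242 (95% exact interval 1451 to 43285, counting error only), with an adjusted p of 0.11. Cd59a was 176 ± 24.1 and 70.7 ± 14.5 (-1.12 ± 0.47, adjusted p = 0.47), also without overlap.

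The calls differed with the mice in the fit. In the 4 mice of P7 and P21 alone, C3 (adjusted p = 0.015), C4b (0.019) and C7 (0.015) passed, and without the E18.5 female C1ra, C4b and C7 passed (0.044, 0.022 and 0.047). C1ra and C4b passed without the E18.5 male (0.046 and 0.025), and C3 passed without the P1 female (0.022) or the P1 male (0.019). Without the 17 cells of mesothelial markers C3 was 4.22 ± 3.83 at P7, none being present at P21, and its fitted change was 8.57 (adjusted p = 0.076). The members' median was 1.82, beside 0.10 over all genes.

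The earlier adventitial steps gave no call. None of 7 members passed from E18.5 to P1 (0.17% of genes did, 3 members at an unadjusted p under 0.05, 0 by DESeq2) or from P1 to P7 (0% of genes, 2 members, 0 by DESeq2). Median changes were 1.08 and 0.51, beside 0.16 and -0.07 over all genes. C4b was 2.04 ± 2.89 at E18.5 and 19.8 ± 2.99 at P1 (3.76 ± 1.21, edgeR adjusted p = 0.41), and passed without the E18.5 male, which left 1 mouse with 0 reads (adjusted p = 0.0086). Cd59a differed without overlap between mice at both steps (1.08 ± 0.47 with adjusted p = 0.53, and 1.56 ± 0.48 with adjusted p = 0.83). C3 at P1 was 86.6 in the female and 1.07 in the male, and 1 cell of mesothelial markers held 65.1% of the female's reads, the level being 30.9 CPM without it.

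In alveolar fibroblasts C3 had 0 reads at E18.5, 0.830 and 0.381 CPM at P1, then 0 and 0.0288 at P7 and 252 and 112 at P21. C7 was at 10.6 and 0 CPM at E18.5, 68.9 and 42.3 at P1, then 91.9 and 214 at P7, and 460 and 626 at P21. C4b took another course, with 0 reads at E18.5, 26.7 and 19.5 CPM at P1, then 0.727 and 0.0216 at P7 and 71.4 and 107 at P21. C4b was thus lower at P7 than at P1 and P21 in both sexes. In adventitial cells C4b at P7 was above P1 in both sexes, but 1 cell of mesothelial markers held 54.8% of the P7 female's C4b reads, and without such cells the females were at 22.4 CPM at P1 and 14.0 at P7, the reverse order.

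None of 7 members passed from P7 to P21 in alveolar cells (0.0702% of 15670 genes did), 3 were at an unadjusted p under 0.05 and DESeq2 called 3. C3 had 4 reads at P7 and 45033 at P21 (14.36 ± 2.67, edgeR adjusted p = 0.27), Serping1 was 1825 ± 165 and 4007 ± 495 CPM (1.45 ± 0.27, adjusted p = 0.21), and C4b was 0.374 ± 0.499 and 89.1 ± 25.0 (8.49 ± 2.06, adjusted p = 0.47). None of the 3 overlapped. The summed level of the 6 mesothelial markers in these alveolar libraries was 313 and 457 CPM at P7 and 701 and 890 at P21, with Msln at 0 in the P21 female and Upk3b at 0 in the P21 male, and its part in the C3 result was not tested. C7 was 153 ± 86.7 and 543 ± 117 (2.09 ± 1.48, adjusted p = 0.82). In the P21 male, 3 cells held 96.1% of the Cd55 reads behind its 142 CPM, the female being at 52.8. The median was 2.09 over members and -0.04 over all genes. C3 passed when either E18.5 mouse was left out (adjusted p = 0.011 and 0.0092), and C3, C4b and C7 passed in the 4 mice of P7 and P21 alone (0.0013, 0.030 and 0.044).

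From P1 to P7 in alveolar cells none of 7 passed (0% of genes, 2 members at an unadjusted p under 0.05, 1 by DESeq2). C4b was 23.1 ± 5.08 and 0.374 ± 0.499 CPM (-6.15 ± 1.84, edgeR adjusted p = 1; DESeq2 adjusted p = 0.0066), and the median was -0.60 beside -0.05. From E18.5 to P1 none of 7 passed where 6.16% of genes did, with 4 at an unadjusted p under 0.05 and 1 called by DESeq2. C4b (edgeR adjusted p = 0.056) had 0 reads in 38 alveolar cells at E18.5 and a read in a mean of 9.30% of cells at P1. Set at 3 reads for E18.5, its summed level at P1 was 123-fold higher. This bound covers counting error of reads only, and not the spread between cells or mice. The E18.5 female contributed 14 alveolar cells with a median of 104871 reads. Its 8 epithelial markers summed to 1082 CPM, against 16.3 to 128 in the other alveolar libraries, with Epcam, Sftpa1, Krt8 and Krt18 at 0, and its 8 immune markers to 515 CPM against 9.36 to 58.6, with Ptprc and Cd52 at 0. Their part in the result was not tested. The median change of all genes was 1.35, beside 3.10 over members (2.40 with members at 0 set at their bound). Without that mouse 5 of 7 members passed: C1ra (adjusted p = 0.00055), C7 (0.0012), Cd55 (0.0014), Cd59a (0.023) and C4b (0.026). Without the E18.5 male C1ra alone passed (0.048).

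Airway smooth muscle was the class in which members passed with age, 2 of 6 tested from P7 to P21, where 1.13% of 13496 genes did. C3 had 4 reads at P7 and reached 176 and 131 CPM at P21 (12.74 ± 1.66, edgeR adjusted p = 0.014). A minority of the P21 cells carried it, with a C3 read in 8 of 62 airway cells of the female and 10 of 57 of the male. Serping1 was at 379 and 306 CPM at P7 and 1769 and 1843 at P21 (2.75 ± 0.42, adjusted p = 0.018). The groups did not overlap for either gene. C4b was at 0.0389 and 8.15 CPM at P7 and 126 and 183 at P21 (5.76 ± 2.08, adjusted p = 0.36), and C1ra was 1.03 ± 0.738 and 75.0 ± 10.8 (7.33 ± 1.75, adjusted p = 0.11). Cd55 had 1 read at P7 and 353 at P21, at 5.63 CPM in the female and 0.994 in the male (8.96 ± 3.30, adjusted p = 0.37). Cd59a was 135 ± 23.3 and 84.9 ± 23.4 (-0.33 ± 0.47, adjusted p = 0.87). The median was 6.55, beside -0.09 over all genes. C3 lost its call without the P21 female (adjusted p = 0.053) or the P21 male (0.076), and Serping1 without either P7 mouse (0.090 and 0.17).

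In vascular smooth muscle none of 4 members tested passed from P7 to P21 (0.0886% of genes did), with 1 at an unadjusted p under 0.05 and 1 called by DESeq2. Serping1 was 676 ± 236 and 1772 ± 723 CPM (1.53 ± 0.44, edgeR adjusted p = 0.50), C1ra 27.0 ± 26.0 and 155 ± 51.3, C4b 46.4 ± 1.50 and 103 ± 18.4 and Cd59a 19.4 ± 11.2 and 82.4 ± 36.1, all without overlap and with the last 3 at adjusted p of 0.71 to 0.82. C3, C7 and Cd55 were not tested there, with 2, 0 and 0 reads at P7 and none at P21. In pericytes none of 4 passed (0.0504% of genes did), with 0 members at an unadjusted p under 0.05 and 0 by DESeq2, and Serping1 was 810 ± 165 and 1015 ± 154. Pericyte C1ra was 37.9 ± 9.91 and 85.9 ± 43.5, without overlap, C4b had 1 read at P7 and 892 at P21, where the male had 0, and Cd59a was 50.2 ± 71.0 and 1.36 ± 1.92. The medians were 1.87 and 0.68, beside -0.09 and 0.20 over all genes.

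In hyperoxia at P7, no member passed the adjusted threshold in edgeR's test. Members whose levels did not overlap between hyperoxia and air included C3 and Cd59a in adventitial fibroblasts and C7 in alveolar fibroblasts. The share of all genes that set 2 mice apart from 2 others was not counted, so separation without overlap is a description only. Adventitial C3 was at 168 CPM in the hyperoxia female and 249 in the male, against 29.5 and 6.93 in air (208 ± 57.0 against 18.2 ± 16.0, log2 fold change 3.66 ± 1.39 SE, edgeR adjusted p = 0.62). Adventitial Cd59a was at 53.7 and 34.0 against 159 and 193 (43.9 ± 13.9 against 176 ± 24.1, -2.23 ± 0.49, adjusted p = 0.40). Both genes separated the mice without overlap, in opposite directions. A small run held CD31-gated cells of both P7 males, with 3 adventitial cells in air and 7 in hyperoxia. Within it C3 was at 64.3 and 548 CPM and Cd59a at 278 and 150, with 1 mouse on each side and no test possible. Only 2 of the 7 hyperoxia cells had a C3 read. All 9 cells of mesothelial markers of that mouse had one, and 2 of the 9 came from this gate. The 548 CPM thus came from cells of mesothelial markers alone. The remaining hyperoxia cells had no C3 read, against 1 of 3 cells with a read in air.

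The cells of mesothelial markers held most of the C3 reads in these libraries. They were 6 of 110 and 9 of 116 adventitial cells in hyperoxia, carried C3 at 2849 and 2460 CPM, and held 73.3% and 78.8% of the C3 reads of the female and male. In air at P7 they were 1 of 50 and 0 of 56 cells, and that cell held 1702 of the female's 1791 C3 reads. Without these cells C3 was at 46.9 and 57.2 CPM in hyperoxia and 1.51 and 6.93 in air, still without overlap, and the fitted change was 3.57 (edgeR adjusted p = 0.69). By the sort gate, 4 of the 6 and 2 of the 9 came from a CD31 gate. Of the other members, they held 51.0% of C4b reads in the hyperoxia male, 19.8% in the hyperoxia female and 54.8% in the P7 female in air, and 9.14% and 6.52% of Cd59a reads, and Cd59a without them was at 52.4 and 33.6 CPM. Without them C4b was 25.7 ± 11.8 in hyperoxia and 21.4 ± 10.5 in air. The summed level of the 6 mesothelial markers in adventitial libraries was 722 and 826 CPM in hyperoxia and 0.0290 to 288 in air.

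**Figure D4:**
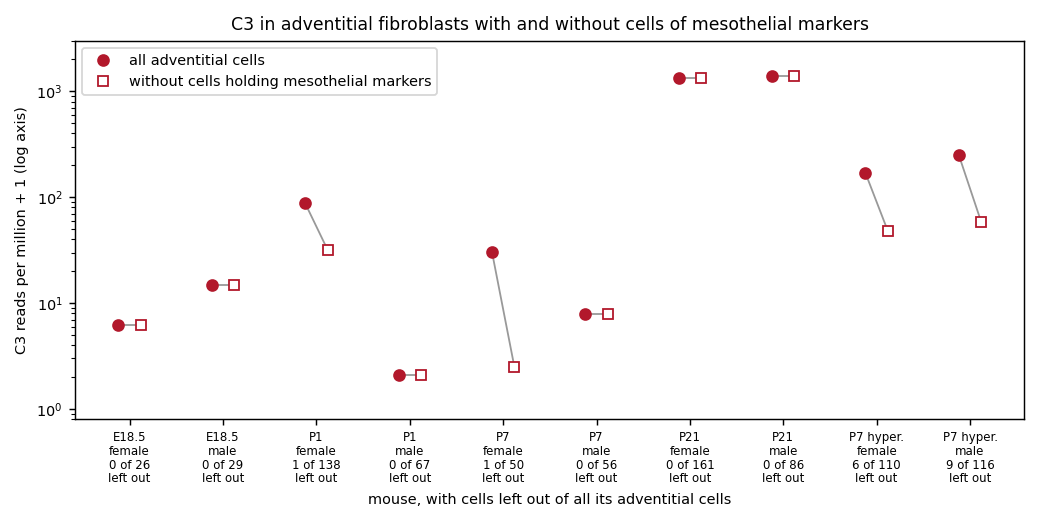
C3 in CPM + 1 (log axis) in the adventitial fibroblasts of each mouse, from all cells (filled circles) and without the cells that carried mesothelial markers (open squares), with the number of cells left out below each mouse. Leaving them out lowers C3 in both hyperoxia mice and in the P1 and P7 females, and no such cell was present at E18.5 or P21.

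The share of adventitial cells with a C3 read was 23.6% and 34.5% in hyperoxia (female and male), 6.00% and 7.14% in air at P7, and 75.2% and 64.0% at P21. With each cell thinned to 100000 reads the shares were 23.4% and 31.9%, 6.00% and 5.56%, and 74.2% and 62.4%, so the order was the same. Without the cells of mesothelial markers the unthinned shares were 19.2% and 29.0% in hyperoxia and 4.08% and 7.14% in air. Pericytes at P21 had a C3 read in a mean of 2.71% of cells at 0.0866 CPM. The 55 cells labelled male hyperoxic fibroblast, all from 1 mouse, had a C3 read in 30.9% of cells at 0.647 CPM, and in 5.45% when thinned, with no cell at 10 CPM or more. The C3 reads of that class were thus few per cell.

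Of the other adventitial members, C1ra and C7 did not overlap between hyperoxia and air, while Serping1, C4b and Cd55 did. The share of all genes without overlap was not counted, so this is a description only. C1ra was at 373 and 322 CPM against 244 and 172 (0.56 ± 0.32, edgeR adjusted p = 0.66), without overlap. Serping1 was at 3670 and 2985 against 2933 and 3300, C4b at 20.8 and 64.0 against 30.0 and 28.8, and Cd55 at 52.6 and 76.9 against 84.3 and 65.4, all overlapping. C7 had 394 reads in hyperoxia, at 5.20 CPM in the female and 0.235 in the male, and 2 reads in air (edgeR adjusted p = 0.62). The ratio of summed levels was 127 (95% exact interval 35.0 to 1054, counting error only). The C7 reads came from few cells, 3 of 110 in the hyperoxia female and 5 of 116 in the male. In air they came from 0 of 50 and 2 of 56 cells. For the adventitial class 0 of 7 members passed in edgeR's test, as did 0% of 15289 genes, with 3 members and 1224 genes at an unadjusted p under 0.05. DESeq2 called 2, Cd59a (adjusted p = 0.0022) and C7 (0.0016). The median was 0.10 over members and 0.12 over all genes.

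In alveolar fibroblasts C7 was at 34.3 and 18.9 CPM in hyperoxia against 91.9 and 214 in air (26.6 ± 10.9 against 153 ± 86.7, -2.89 ± 1.57, edgeR adjusted p = 1), without overlap. Cd55 was at 28.6 and 40.9 against 14.4 and 11.9, and C4b at 2.52 and 6.09 against 0.727 and 0.0216, also without overlap. C1ra was at 107 and 120 against 58.6 and 64.7, also without overlap. Serping1 and Cd59a were at 2081 and 1827 against 1708 and 1942, and 206 and 147 against 213 and 247, Serping1 overlapping and Cd59a not. None of 7 members passed (0% of 15670 genes, 0 members and 420 genes at an unadjusted p under 0.05, 0 members by DESeq2), with a median of 0.66 beside 0.06.

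Airway smooth muscle held less Serping1 in hyperoxia, at 184 and 128 CPM against 379 and 306 in air (-1.15 ± 0.40, edgeR adjusted p = 1), without overlap. Cd55 had 1 read in air and 157 in hyperoxia, at 0.00972 and 0 CPM against 2.36 and 3.79 (9.36 ± 3.39, edgeR adjusted p = 1, DESeq2 adjusted p = 0.032), without overlap. C1ra, C3, C4b and Cd59a overlapped. None of 6 members passed there (0% of genes, 2 members and 418 genes at an unadjusted p under 0.05, 1 member by DESeq2), with a median of 0.24, or 0.91 with bounds, beside -0.06. In vascular smooth muscle Cd59a was at 68.8 and 66.8 CPM against 11.5 and 27.4 (1.54 ± 1.07, adjusted p = 1) and C1ra at 47.9 and 80.7 against 45.3 and 8.57, without overlap, while C4b overlapped. Serping1 there was at 370 and 439 against 509 and 843 (-0.92 ± 0.44, adjusted p = 1), and none of 4 passed (0% of genes, 0 members and 319 genes at an unadjusted p under 0.05, 0 by DESeq2, median 0.46 beside -0.01). In myofibroblasts C4b was at 3.95 and 11.2 CPM against 0.0602 and 1.25 (4.79 ± 2.33, adjusted p = 0.80), C1ra at 2.92 and 8.69 against 2.29 and 1.11 and Cd59a at 71.5 and 45.8 against 76.0 and 114, each without overlap. Serping1 there was at 281 and 164 against 293 and 306 (-0.46 ± 0.44, adjusted p = 0.94), and none of 5 passed (0% of genes, 0 members and 847 genes, 0 by DESeq2, median -0.46 beside -0.01). Cd55 in myofibroblasts had a fitted change of -6.16 (edgeR adjusted p = 0.93) while its mean was 2.24 in air and 7.89 CPM in hyperoxia, so no direction is given for it.

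The difference of the hyperoxia effect between adventitial and alveolar fibroblasts was tested as an interaction over the 4 mice at P7. None of 7 members passed (0% of 15587 genes, 3 members and 1064 genes at an unadjusted p under 0.05, 4 members by DESeq2). Cd59a had the smallest adjusted p of the members (-1.65 ± 0.23, edgeR adjusted p = 0.55), followed by C7 (8.77 ± 1.74, adjusted p = 0.65) and Cd55 (-1.63 ± 0.40, adjusted p = 0.71). The median was -0.14 beside 0.15 over all genes. Without the P7 female in air 2 members passed, C4b (adjusted p = 0.022) and Cd59a (0.038), with a single mouse in that group.

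In adventitial and alveolar cells the median number of members read per cell was higher at P21 and under hyperoxia than in younger mice in air. The median adventitial cell held reads of 2 of the 7 genes in every mouse in air before P21, and of 5 (female) and 4 (male) at P21. Cells with 5 or more members were 57.1% and 37.2% of adventitial cells at P21, 42.3% and 17.6% of alveolar cells at P21, and at most 6.11% of either class in any younger mouse in air. In hyperoxia the adventitial medians were 3 (female) and 4 (male), with 5 or more members in 9.09% and 24.1% of cells. The alveolar medians were 3 in both hyperoxia mice, 2 in both P7 mice in air, and 4 (female) and 3 (male) at P21. The alveolar shares with 5 or more members in hyperoxia were 3.30% and 12.4%. Myofibroblast medians were 2 in both hyperoxia mice and 1 in both P7 mice in air. More genes of any kind were detected per cell in the hyperoxia mice, and the part of this was not tested. At P21 C4b was read in 74.4% and 65.5% of the adventitial cells with a C3 read and in 25.0% and 25.8% of those without. In hyperoxia the same shares were 42.3% and 75.0% against 9.52% and 22.4%. Cells of mesothelial markers were 6 of the 26 and 9 of the 40 cells with a C3 read there, and 4 and 9 of them carried C4b. Depth was similar between the cells with and without C3 at P21 (median 957996 against 929536 reads in the female, 1093850 against 998137 in the male).

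Across the 64 libraries of a mouse and subtype with at least 10 cells, the level of C1ra ran closest to its partner protease gene C1s1 (Pearson r 0.85 of log2(CPM + 1), as a description) and then to Serping1 (0.84). Serping1 ran closest to Plxdc2 and Gsn (both 0.85), C3 to the stromal protease gene Mmp3 (0.88), Faim2 (0.80) and Serpina3n (0.79), and C4b to Sod3, Tnxb (both 0.73) and Adamtsl1 (0.72). C7 ran closest to Slc7a10 (0.81), Inmt (0.80) and the vitamin A-storing enzyme gene Lrat (0.78). Cd55 ran closest to Mmp19 (0.83), Fam198a (0.82) and Clec3b (0.80), and Cd59a to Pde4d (0.74), Gas6 (0.71) and Gstt1 (0.70). The libraries share mice, classes and sequencing runs, and 9441 genes were compared. Among the members themselves C1ra and Serping1 were the closest pair and C1ra and Cd59a the farthest (r 0.08).

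Corrected for the length of each gene's exons, adventitial fibroblasts at P21 carried Serping1 at 2795 ± 250 CPM per kilobase, C3 at 264 ± 9.24, C1ra at 217 ± 0.0344, C4b at 61.9 ± 6.77, Cd59a at 39.0 ± 8.00, C7 at 31.1 ± 5.98 and Cd55 at 9.73 ± 1.79 (n = 2 mice). On the same scale alveolar fibroblasts at P21 carried Serping1 at 1723 ± 213, C7 at 203 ± 43.8, Cd59a at 172 ± 168, C1ra at 62.8 ± 20.2, C3 at 35.4 ± 19.3, Cd55 at 20.1 ± 13.0 and C4b at 15.6 ± 4.39. Serping1 therefore led both classes per length, followed by C3 in adventitial and C7 in alveolar cells.

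Of 49 further complement genes on 7 lists by role, 41 were in the table and 14 reached 10 CPM in a class. They were 4 of 9 classical pathway genes (C1qa, C1rl, C1s1, C2), 2 of 9 lectin pathway genes (Colec11, Colec12), 1 of 4 alternative pathway genes (Cfb), 1 of 5 terminal genes (C6), 3 of 8 soluble regulators (Clu, Csmd1, Vtn), 2 of 4 membrane regulators (Cd59b, Cr1l) and 1 of 10 receptors (C1qbp). C1s1, whose protein pairs with C1r, had a mean of 385 CPM in adventitial fibroblasts, 244 in pericytes, 144 in vascular smooth muscle and 116 in alveolar fibroblasts, so that it was highest in the adventitial class, as C1ra was. C6, which joins C7 in the attack complex, was at 17.8 CPM in alveolar fibroblasts and at 0.338 or less in the other 5 classes, and was highest in the alveolar class, as C7 was. Vtn, an inhibitor of that complex, was at 276 CPM in pericytes, where Cd59a was lowest.

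**Figure D5:**
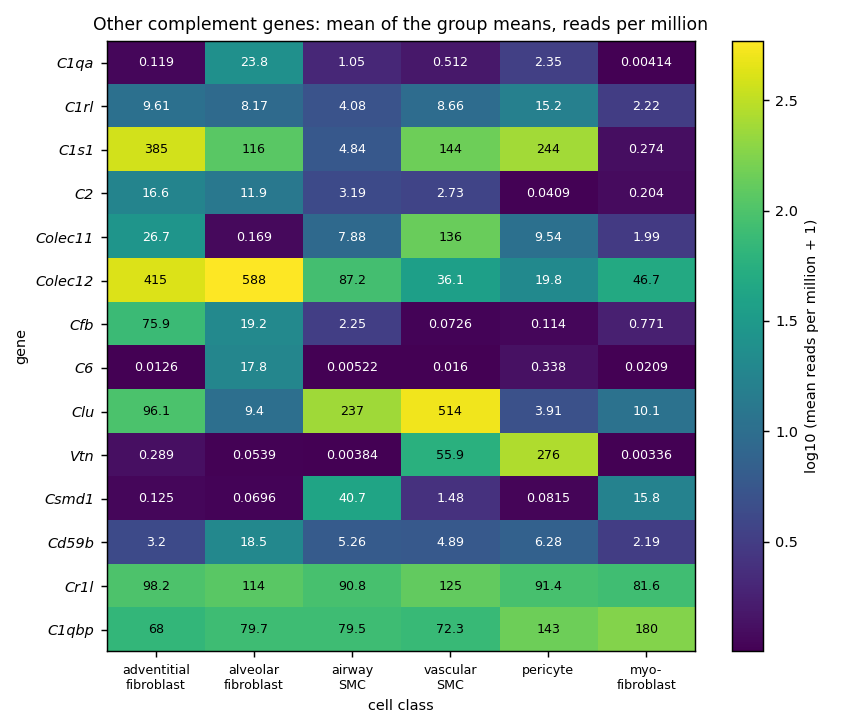
Mean level in CPM, printed and coloured by log10(mean + 1), of the 14 other complement genes that reached 10 CPM in a class, with 1 row per gene and 1 column per cell class (SMC, smooth muscle cells). C1s1 and Cfb are highest in the adventitial column, C6 in the alveolar column, Clu in both smooth muscle columns and Vtn in the pericyte column.

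Clu (clusterin) was the 1 of 19 list genes (all genes 1.13%) that passed in airway smooth muscle from P7 to P21, at 61.8 ± 4.34 and 588 ± 123 CPM (3.61 ± 0.57, adjusted p = 0.020), and C6 the 1 of 31 (all genes 6.16%) from E18.5 to P1 in alveolar cells (7.39 ± 1.58, adjusted p = 0.038). In the other age steps and in each of the hyperoxia comparisons 0 of the 12 to 32 list genes tested passed in edgeR's test (all genes 0% to 0.17%), with 0 to 5 at an unadjusted p under 0.05 and 0 to 7 called by DESeq2.

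Against alveolar fibroblasts 4 of 20 list genes, beside 7.27% of all genes in either direction, were higher in adventitial cells (C1s1, Colec11, Cfb and Clu) and 0 lower. Against myofibroblasts (all genes 12.3%) 6 of 20 were higher (C1rb, C1s1, C2, Colec11, Colec12 and Cfb) and 2 lower (Csmd1 and C1qbp), and against airway smooth muscle (10.8%) 5 of 16 were higher (C1rb, C1s1, C2, Colec12 and Cfb) and Csmd1 lower. Against vascular smooth muscle (9.39%) 3 of 16 were higher (C1s1, Colec12 and Cfb) and Clu lower, and against pericytes (13.8%) 4 of 14 were higher (C2, Colec12, Cfb and Clu) and Vtn lower (-12.22 ± 1.16, edgeR adjusted p = 2.8e-05). Cfb, the gene of the factor that pairs with C3 in the amplification loop, passed in all 5, with 75.9 CPM in adventitial cells over 10 mice. Between pericytes and vascular smooth muscle 1 of 10 passed (3.33%), Clu, lower in pericytes.

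Reads of C4b and C4a, C1ra and C1rb, Cd55 and Cd55b, and Cd59a and Cd59b can be shared between near-identical copies, and how the counting split them was not stated, so the level of each of these 4 members is uncertain by that amount.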

How the data were processed

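Cells were sequenced singly in plates with Tn5 and no RNA extraction, per the labels' protocols. The authors deposited raw counts of reads per gene and cell, recognised from the values. The submitters' processing notes name STAR 2.5.2b, HTSeq 0.10 and the build GRCh38, a human build, for these mouse samples, so no file coordinate was used. The roles of the tools and the annotation are not given in the sources used here. Near-identical gene copies may share counts.

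For each mouse and class the counts of all cells were added up into 1 library, kept for tests at 10 cells or more. CPM relate a gene's reads to 1000000 reads of that library. Of the 5480 cells, 71 were not from the mesenchymal gate and were kept. How doublets were treated is not given in the sources used here, and no doublet caller was run. Thinning to 100000 reads left out 168 cells. Age and hyperoxia comparisons used edgeR 4.0.16 in R 4.3.3 (TMM, filterByExpr, two-sided quasi-likelihood test) with terms for sex and group and all groups of a class in 1 fit. Class and interaction tests had the mouse as a block. Adjusted p is by Benjamini-Hochberg over all genes tested, with a threshold of 0.05. With 2 mice per group, p-values rest on the spread between few animals. Many large differences missed the threshold, and the reason was not tested. The scripts were tested on simulated data. A fold against a group at 0 used 3 reads over the group, and intervals cover counting error only.

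The rule named all 7 members in every comparison. The plot of fold changes gives each fitted value, with members below the filter not tested, and the text describes part of them. Another complement gene was named where it passed the threshold or reached 10 CPM in a class, and for likeness the 3 genes of highest correlation were named. The members and lists were chosen with earlier results of these data known. One gene of the lists is not reported here. Gene lengths are from GENCODE M21. Alternatives were another scaling, no filter, DESeq2 1.42.0, other designs, cell minimums, the mesenchymal sort alone, each mouse left out, and, chosen after seeing the data, leaving out cells with mesothelial markers and counting only cells at 10 CPM or more.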

Additional observations from a re-analysis of the deposited data

How the results depend on the processing

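Outside leaving out a mouse, 148 of 169 counts of members past the threshold stayed within 1.5 times of the reported count. DESeq2 was the setting that moved most. It called 4 members in adventitial cells from P7 to P21, 4 in airway and 1 in vascular smooth muscle over the same step, and 3 in alveolar cells. It called 1 in alveolar cells at each of the 2 earlier steps, 2 in adventitial and 1 in airway cells for hyperoxia, and 4 for the difference of the hyperoxia effect. It called 7 against alveolar cells and 2 between pericytes and vascular smooth muscle. Without a term for sex 1 member passed in adventitial cells from P7 to P21 and 1 in alveolar cells from E18.5 to P1. With only the 4 mice of the contrast 3 passed in adventitial, 3 in alveolar and 1 in airway cells from P7 to P21. With at least 20 cells, which drops the E18.5 female from the alveolar class, 5 passed in alveolar cells from E18.5 to P1 and 1 from P7 to P21. In 1 fit over all classes 1 passed in alveolar and 1 in vascular cells from P7 to P21. Without the mouse block 0 passed against alveolar cells. The cause of these shifts was not tested. Over all genes DESeq2 called 129 to 3631 genes per comparison and edgeR 0 to 1604, and at 20 cells the alveolar step from E18.5 to P1 had 4846 calls in place of 966.

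Leaving out 1 mouse gave 0 to 1 members in adventitial cells from E18.5 to P1 and 0 to 3 from P7 to P21, 0 to 5 and 0 to 1 in alveolar cells over the same steps, and 1 to 2 in airway cells. It gave 3 to 5 against alveolar cells, 3 to 5 against myofibroblasts, 4 to 6 against pericytes, 0 to 1 between pericytes and vascular cells and 0 to 2 for the hyperoxia difference. The other counts did not move. No direction of a member with an unadjusted p under 0.05 turned under any setting run. Without the mouse block C3 against airway cells (adjusted p = 0.37), Cd59a against pericytes (0.23) and C4b against pericytes (0.072) and myofibroblasts (0.057) lost their calls.

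No paired analysis was possible for age and hyperoxia because each mouse belongs to 1 group and the groups share no replicate number beyond sex. Levels as a mean over cells stayed within the spread between mice for 152 of 175 values. Shares of cells with a read stayed so for 138 of 175 values after thinning and 128 of 175 at 10 CPM or more. Each group had 2 mice, and reads copied from 1 molecule count separately, which limits all comparisons.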

Other observations

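In the myofibroblast precursors the E18.5 female and male had Serping1 at 223 and 221 CPM, Cd59a at 50.4 and 18.2 and Cd55 at 9.81 and 2.43, with C3 at 0.0465 and 0.0395. The fibroblast precursors of the same mice had Serping1 at 1331 and 1450 CPM, C1ra at 32.7 and 23.8 and Cd59a at 68.0 and 91.9, with C4b at 0.00900 and 0.00285. Proliferating fibroblasts had Serping1 between 815 and 1750 CPM in the 5 libraries with at least 10 cells and C1ra between 11.1 and 157, the hyperoxia male being highest for both. The 16 striated muscle cells of the P21 female had Cd59a at 174 CPM and Serping1 at 18.7. The 55 cells labelled male hyperoxic fibroblast had Serping1 at 1256 CPM, with a read in 100% of cells, C1ra at 77.7, Cd59a at 86.2, Cd55 at 29.5 and C7 at 11.3. These classes entered no test.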
